A study of Mus musculus with 12 samples.

Results

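The receptors through which sensory neurons read 2 families of growth factors were followed in the trigeminal ganglion, the sensory ganglion of the face and the meninges, of 12 mice. The genes are Ntrk2, Ntrk3 and Ngfr (neurotrophin receptors), Bdnf (a neurotrophin), and Ret, Gfra1, Gfra2 and Gfra3 (the shared receptor and 3 coreceptors of the glial cell line-derived neurotrophic factor family, or GDNF family). They are 8 of the 51341 genes of the deposited table, found by name through their Ensembl identifiers. All animals were CD1 mice, an outbred stock, and the title of each sample marks it as a responder or a non-responder. Each group held 6 mice, 3 males and 3 females, each with its own library of poly A selected RNA from frozen ganglia. The series title concerns light aversion after PACAP (pituitary adenylate cyclase-activating polypeptide), and the response is read here as one to PACAP. The sources used here do not give the age of the mice, the dose, the way a response was scored or the time from PACAP to dissection.

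Neurotrophins bind receptor tyrosine kinases of the Trk family, each with its preferred ligands, and all of them also bind the p75 receptor encoded by Ngfr. Ligands of the GDNF family bind a GFR alpha coreceptor on the cell surface, which then engages the kinase Ret. In sensory ganglia these receptors sort neurons into classes: TrkB (Ntrk2) and TrkC (Ntrk3) are kept by large myelinated mechanoreceptive and proprioceptive neurons, Ret with Gfra2 by nonpeptidergic nociceptors and some low-threshold mechanoreceptors, and Gfra3 by peptidergic nociceptors. Satellite and Schwann cells also make some of these RNAs, mainly a form of Ntrk2 without the kinase domain, and gene-level values pool all forms. In bulk tissue, fewer cells of a class and less RNA per cell cannot be told apart.

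The unit is FPKM, fragments per kilobase of transcript corrected for the depth of each library, so that levels can be compared between genes. The mice had totals of 286388 to 358590 FPKM and an implied depth of 17200000 to 38500000 fragments, lowest in responder 1 and highest in non-responder 4. The 12 pan-neuronal marker genes summed to 1730 to 3791 FPKM in responders and 1931 to 2893 in non-responders, none of them at 0 in all mice. On the log2 scale 10 of the 12 were higher in responders, beside 50.7% of all genes, and 2 were lower. The sensory neuron factor Pou4f1, 1 of these 2, lay at 39.1 ± 8.91 and 39.2 ± 5.90 FPKM (SD, n = 6 per group). Other tissues were present in unequal amounts: 8 pituitary genes summed to 359 to 77911 FPKM in responders, the highest in responder 1, and to 27.2 to 1053 in non-responders, and 6 neutrophil genes reached 3804 FPKM in non-responder 4. The 8 genes of myelinating Schwann cells summed to 2311 to 4454 FPKM in responders and 4259 to 6289 in non-responders. The description of each sample opens with a number of unstated meaning (44, 45, 48 or 49 in responders, 68, 82 or 83 in non-responders), and each number holds mice of 1 group and 1 sex, so that it cannot be told apart from the response.

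Promoter windows are shown for 2 of the neurotrophin receptors, Ngfr and Ntrk2, as the letters in front of the genes described below. RefSeq windows were matched for 4 of the 8 genes (Ngfr, Ntrk2, Gfra1 and Bdnf). The 2 below run from 250 to 51 bases before the RefSeq start, 200 bases each, 5′ to 3′ on the strand of the gene, in build GRCm38.p6. For Ngfr this start is not the gene boundary given further below, which comes from another annotation. Capitals mark the GC box GGGCGG, searched on both strands, a motif bound by Sp1-type factors. The Ngfr window is chr11:95587749-95587948, minus strand, and the Ntrk2 window is chr13:58806319-58806518, plus strand.
Ngfr: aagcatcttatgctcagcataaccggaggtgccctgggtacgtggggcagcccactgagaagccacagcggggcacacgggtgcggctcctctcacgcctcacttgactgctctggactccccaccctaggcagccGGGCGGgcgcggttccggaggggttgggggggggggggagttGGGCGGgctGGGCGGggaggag
Ntrk2: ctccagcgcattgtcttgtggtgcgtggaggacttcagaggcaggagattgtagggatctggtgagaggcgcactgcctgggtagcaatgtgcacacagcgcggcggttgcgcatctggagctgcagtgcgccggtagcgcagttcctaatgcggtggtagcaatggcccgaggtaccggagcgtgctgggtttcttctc
The Ngfr window held 3 matches to the GC box and the Ntrk2 window 0, and 24.6% of 32851 such windows held at least 1. The Gfra1 window held 0, and 2 of the 7 Bdnf windows held 1 each. G and C made up 70.0% of the Ngfr window and 61.0% of the Ntrk2 window, against a median of 51.5%. Neither held a CCAAT box (CCAAT, in 28.4% of the windows) on either strand. The same held for the TATA box, searched as TATAAA (9.14% of the windows), and for the cyclic AMP response element, searched as TGACGTCA (0.828%). None of these motifs overlaps another in the windows shown. A match describes the letters of the window only, and its relation to expression was not tested.

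Ret and Ngfr were the most abundant of the 8 genes and Ntrk3 and Bdnf the least. Over the 12 mice the mean level was 169 FPKM for Ret, 122 for Ngfr, 39.4 for Ntrk2, 39.1 for Gfra1, 18.6 for Gfra2, 18.4 for Gfra3, 6.38 for Ntrk3 and 4.13 for Bdnf. Ret exceeded Ngfr, Ngfr exceeded Ntrk2, and Gfra1 exceeded Gfra2 in 12 of 12 mice. The order was not resolved between Ntrk2 and Gfra1, where Ntrk2 was the higher in 5 of 12 mice, or between Gfra2 and Gfra3, where Gfra2 was the higher in 7. Gfra3 exceeded Ntrk3 in 11 mice, all but responder 1, and Ntrk3 exceeded Bdnf in 9. All 8 genes reached 1 FPKM in every mouse. Ret lay above 98.5% of the 14203 genes tested and Bdnf above 38.6%.

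**Figure D1:**
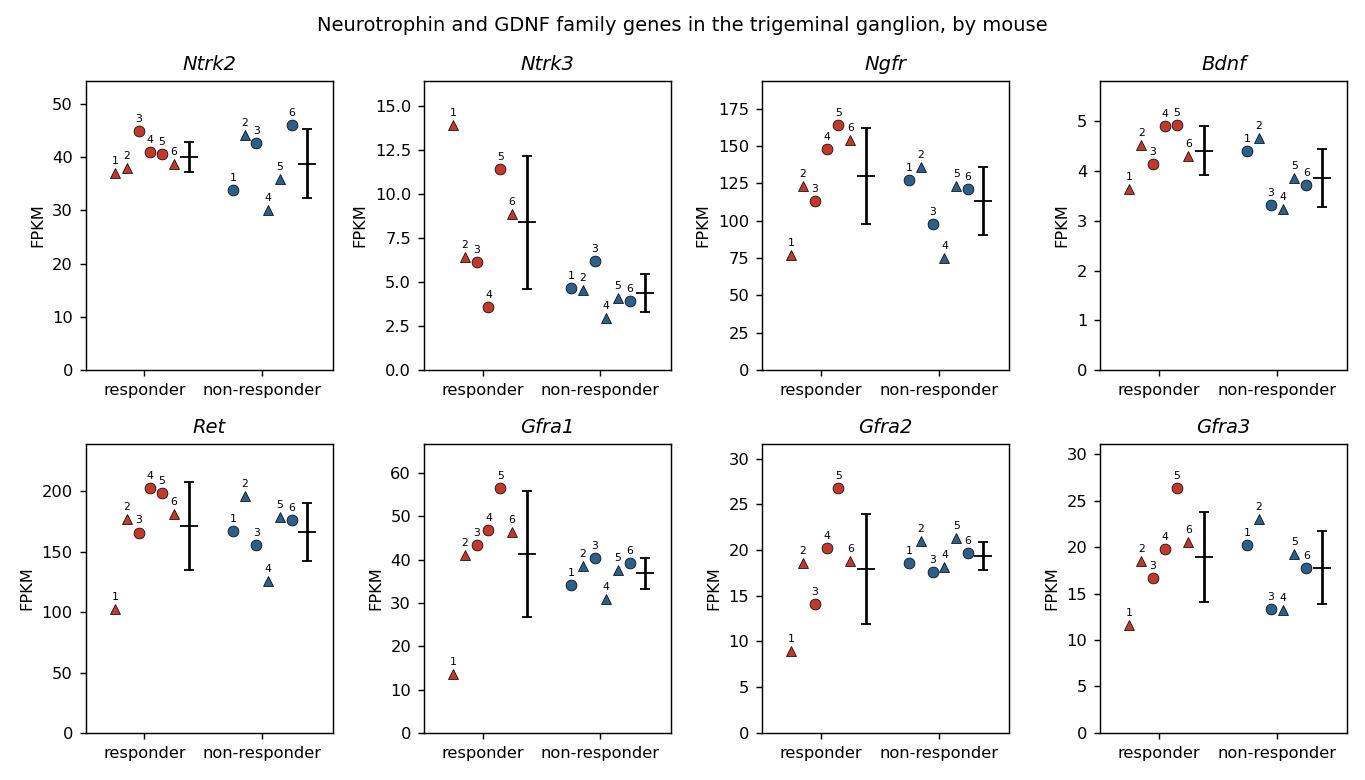
Level of each gene in FPKM (y axis, from 0) in every mouse of the responder (red) and non-responder (blue) groups, with males as triangles, females as circles, replicate numbers above the points, and the group mean ± SD as bars. Ntrk3 reaches 13.9 FPKM in responder 1 and no more than 6.17 in a non-responder, and responder 1 lies lowest for Ret and Gfra1.

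Responders were compared with non-responders on log2(FPKM + 1) with sex as a covariate, to ask whether the receptor make-up of the ganglion differs with the response. No member passed: by limma, 0 of 8 had an adjusted p under 0.05, beside 0.0211% of the genes tested, and 1 of 8, Ntrk3, had an unadjusted p under 0.05, beside 7.40%. The log2 fold change was positive for 7 of the 8 genes, beside 50.7% of all genes, with a median of 0.07 against 0.003 over all genes. The pan-neuronal markers were positive for 10 of 12, with a median of 0.11, and their part in the count of members was not tested. Ret, Gfra1 and Gfra3 changed sign in some fits that left out 1 mouse. The ranges of the groups overlapped for every member, while 0.549% of the tested genes had groups that did not overlap. P-values here measure the spread between mice.

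Ntrk3, on chromosome 7 from 78175959 to 78738012 (GRCm38, minus strand, ENSMUSG00000059146), encodes TrkC, the receptor for neurotrophin-3. Its FPKM in responders 1 to 6 was 13.9, 6.40, 6.15, 3.59, 11.4 and 8.87. In non-responders 1 to 6 it was 4.66, 4.55, 6.17, 2.95, 4.09 and 3.90. Of the 6 responders, 4 lay above every non-responder, and responder 4 lay below all but 1 of them. The means were 8.38 ± 3.78 FPKM in responders and 4.39 ± 1.06 in non-responders (SD, n = 6 per group). The log2 fold change was 0.72 (SE 0.264, 95% interval 0.14 to 1.299, unadjusted p = 0.0197), which ranked 462 of 14203 and did not pass adjustment (limma, adjusted p = 0.602). It was 0.56 without responder 1 (limma, unadjusted p = 0.0460) and 0.48 without responder 1 and non-responder 4 (0.0875), with an adjusted p of 0.479 to 0.831 over all alternatives. Within responders Ntrk3 averaged 10.1, 4.87, 11.4 and 8.87 FPKM for description numbers 48, 49, 45 and 44, and in non-responders 4.28, 3.87 and 6.17 for 83, 82 and 68. Of the markers of other cells, 0 passed an adjusted p of 0.05 by limma in the same comparison. All 8 pituitary genes had a positive log2 fold change, 7 of them with an unadjusted p under 0.05, beside 7.40% of all genes. Of 8 genes of myelinating Schwann cells 7 were negative (5 under 0.05), and of 6 genes of fibroblasts and meninges 5 were negative (4 under 0.05). Their part in the Ntrk3 difference was not tested.

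Ntrk2 encodes TrkB, the receptor for brain-derived neurotrophic factor (chromosome 13 from 58806569 to 59133970, plus strand, ENSMUSG00000055254), and its promoter window without a GC box is shown above. Its FPKM was 37.0 at the lowest, 39.6 at the median and 44.9 at the highest in responders, and 30.0, 39.3 and 46.0 in non-responders. The responders lay within the range of the non-responders. The means were 40.0 ± 2.85 and 38.7 ± 6.41 FPKM (SD, n = 6 per group), and the log2 fold change was 0.06 (SE 0.104, 95% interval -0.17 to 0.29, limma adjusted p = 0.906). This interval was among the narrowest of the 8 genes.

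Ngfr encodes the p75 neurotrophin receptor, which binds every neurotrophin and is made by neurons and by Schwann cells that lack or have lost myelin (chromosome 11 from 95568818 to 95587735, minus strand, ENSMUSG00000000120). In responders its FPKM was 77.4 at the lowest, 135 at the median and 164 at the highest, and in non-responders 75.1, 122 and 136. Responder 1 and non-responder 4 were the lowest of their groups, and responders 4, 5 and 6 lay above every non-responder. The log2 fold change was 0.18 (SE 0.195, 95% interval -0.25 to 0.61, limma adjusted p = 0.842).

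Bdnf, the only ligand among the 8 genes, is made by a part of the sensory neurons themselves and released towards their targets (chromosome 2 from 109674700 to 109727007, plus strand, ENSMUSG00000048482). Its FPKM in responders was 3.63 at the lowest, 4.42 at the median and 4.92 at the highest, against 3.23, 3.78 and 4.67 in non-responders. Responders 4 and 5 lay above every non-responder and the other 4 within the range of the non-responders. The means were 4.40 ± 0.491 and 3.86 ± 0.576 FPKM (SD, n = 6 per group), with a log2 fold change of 0.15 (SE 0.0989, 95% interval -0.06 to 0.37, limma adjusted p = 0.745). An antisense gene, Gm45346, shares 502 bases with Bdnf at 99.8% identity, and the sources used here do not say whether the strand of the reads was used. It was listed at 0 to 0.263 FPKM in responders and 0 to 0.178 in non-responders.

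Ret, the signalling receptor of the GDNF family, was the most abundant member (chromosome 6 from 118151745 to 118197718, minus strand, ENSMUSG00000030110). Its FPKM in responders 1 to 6 was 103, 177, 166, 203, 199 and 181, and in non-responders 1 to 6 it was 167, 196, 156, 126, 179 and 176. Apart from responder 1 and non-responder 4, which were the lowest of their groups, all mice lay between 156 and 203. The means were 172 ± 36.1 and 167 ± 23.8 FPKM (SD, n = 6 per group), and the log2 fold change was 0.02 (SE 0.161, 95% interval -0.33 to 0.38, limma adjusted p = 0.981). Without responder 1 it was 0.15.

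Gfra1 encodes the coreceptor for GDNF itself (chromosome 19 from 58235604 to 58455909, minus strand, ENSMUSG00000025089). Its FPKM in responders 1 to 6 was 13.7, 41.0, 43.5, 46.9, 56.6 and 46.4. In non-responders 1 to 6 it was 34.1, 38.5, 40.5, 31.0, 37.7 and 39.2. Of the responders, 5 lay above every non-responder, and responder 1 lay below all of them. The log2 fold change over all mice was 0.05 (SE 0.259, 95% interval -0.51 to 0.62, limma adjusted p = 0.969). Without responder 1 it was 0.32 (SE 0.0958, unadjusted p = 0.00689), which did not pass adjustment (limma, adjusted p = 0.505), and without responder 1 and non-responder 4 it was 0.29 (limma, unadjusted p = 0.0118, adjusted p = 0.564). Responder 1 carried the highest pituitary sum, and the part of that tissue in its Gfra1 value was not tested. The antisense gene Gm16277, which matches Gfra1 at 100% over 419 bases, was listed at no more than 0.00421 FPKM.

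Gfra2 encodes the coreceptor for neurturin (chromosome 14 from 70890120 to 70979838, plus strand, ENSMUSG00000022103). Its FPKM was 8.95 at the lowest, 18.7 at the median and 26.8 at the highest in responders, and 17.6, 19.2 and 21.3 in non-responders. Responders 1 and 3 lay below every non-responder and responder 5 above, so that the responders spread on both sides of a narrow non-responder group. The coefficient of variation was 33.6% in responders and 7.91% in non-responders. The log2 fold change was -0.18 (SE 0.202, 95% interval -0.62 to 0.27, limma adjusted p = 0.852), and -0.002 without responder 1.

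Gfra3 (ENSMUSG00000024366) encodes the coreceptor for artemin. Its FPKM in responders was 11.6 at the lowest, 19.2 at the median and 26.4 at the highest, and 13.2, 18.6 and 23.0 in non-responders. Responder 1 lay below and responder 5 above all non-responders. The means were 18.96 ± 4.87 and 17.8 ± 3.91 FPKM (SD, n = 6 per group), and the log2 fold change was 0.07 (SE 0.192, 95% interval -0.35 to 0.50, limma adjusted p = 0.941).

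**Figure D2:**
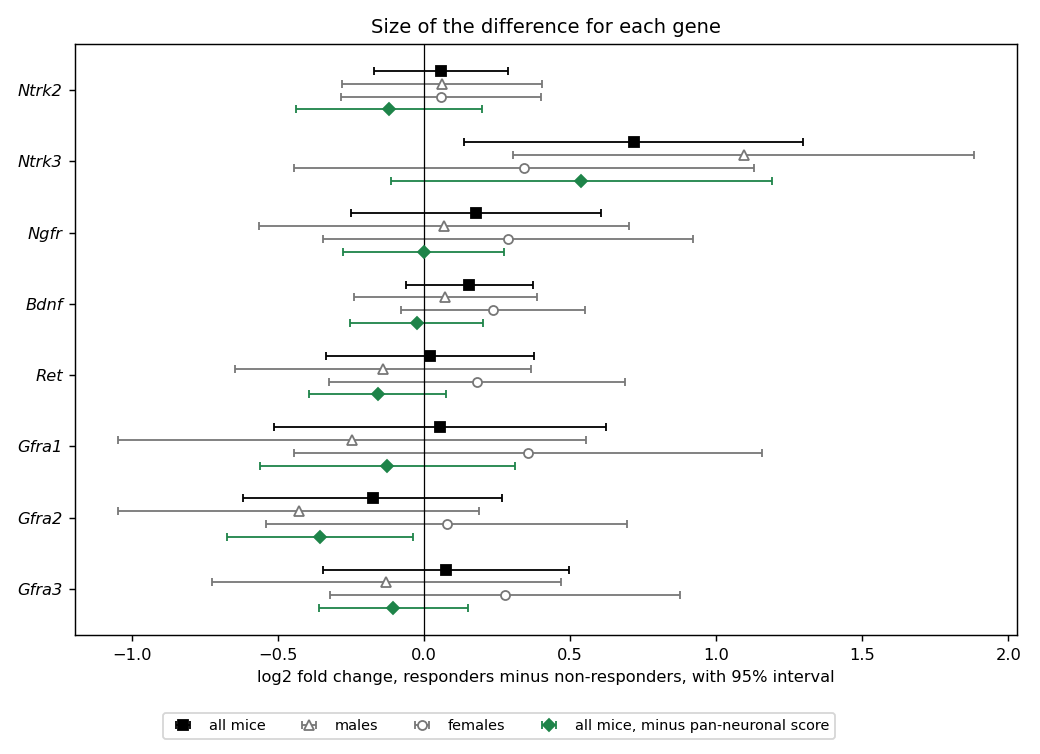
Log2 fold change of responders over non-responders on the log2(FPKM + 1) scale (x axis) with its 95% interval for each gene, over all mice (black), in males (triangles), in females (circles) and over all mice after subtracting the pan-neuronal score (green). The interval over all mice leaves out 0 for Ntrk3 alone (0.14 to 1.299), and the interval after subtraction leaves out 0 for Gfra2 alone (-0.67 to -0.04), before adjustment over all genes.

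The sexes were then compared, since each group held 3 of each. In males Ntrk3 was at 9.72 ± 3.82 FPKM in responders and 3.87 ± 0.827 in non-responders (SD, n = 3 per group), and every male responder lay above every male non-responder. The 3 male non-responders all carried description number 82, and the male responders 48 or 44. The male contrast cannot be told apart from these numbers, and mice that share a number may not be independent. Ntrk3 was the 1 member of 8 whose male groups did not overlap, beside 9.46% of all genes. Its log2 fold change in males was 1.09 (SE 0.355, limma, unadjusted p = 0.0113, adjusted p = 0.700). In females it was at 7.03 ± 3.96 and 4.91 ± 1.15 FPKM, with a log2 fold change of 0.34 (SE 0.355, limma adjusted p = 0.895). The difference between the 2 contrasts, females minus males, was -0.75 (SE 0.502, 95% interval -1.87 to 0.36, limma adjusted p = 0.836), and ran from -1.12 to -0.41 when 1 mouse at a time was left out.

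None of the GDNF coreceptors had a difference between the sexes that passed the test. Gfra1 had a log2 fold change of -0.25 (SE 0.360) in males, a group that holds responder 1, and 0.36 (SE 0.360) in females. The difference was 0.60 (SE 0.509, 95% interval -0.53 to 1.73, limma adjusted p = 0.836), and 0.07 without responder 1. The difference fell likewise from 0.51 to 0.18 for Gfra2 and from 0.41 to 0.17 for Gfra3 without that mouse, and the male contrasts of Gfra1 and Gfra3 became 0.29 and 0.11. In females Gfra1 lay at 43.5 to 56.6 FPKM in responders and 34.1 to 40.5 in non-responders. It was the 1 member of 8 whose female groups did not overlap, beside 19.9% of all genes. In females all 8 members had a positive log2 fold change (median 0.26) and in males 4 of 8 (median -0.03), beside 50.0% and 49.1% of all genes. The pan-neuronal markers gave like counts, with 12 of 12 positive in females (median 0.25) and 4 of 12 in males (median -0.09), and their part in the counts of the members was not tested. By limma, 0 of 8 members passed an adjusted p of 0.05 in males, beside 0.0141% of genes, and at an unadjusted p under 0.05 there was 1, beside 6.78%. In females 0 of 8 passed, beside 0.00704%, and 0 had an unadjusted p under 0.05, beside 6.81%. The interaction gave 0 of 8, beside 0%, and 0 at an unadjusted p under 0.05, beside 5.01%. Between females and males over both groups, 0 of 8 passed by limma, beside 0.0563%, with 0 at an unadjusted p under 0.05, beside 4.53%. The mean was the higher in females for 7 of the 8 genes, beside 48.3% of all genes, and 5 of these 7 changed sign without responder 1 and non-responder 4. The widest difference there was Gfra1, at 43.5 ± 7.72 FPKM in females and 34.7 ± 11.4 in males (SD, n = 6 per sex, log2 fold change 0.39, SE 0.259, limma adjusted p = 0.864), and it was 0.12 without responder 1.

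Because the receptors are read as shares of neuron classes, each level was also set against the neuronal RNA of its mouse. The pan-neuronal score, the mean log2(FPKM + 1) of 12 genes that most neurons express, was 6.15 ± 0.248 in responders and 5.97 ± 0.207 in non-responders (SD, n = 6 per group). The list holds Snap25 and Syt1, which endocrine cells also express. Snap25 reached 34.2 FPKM in responders and 9.90 in non-responders. Of the 12 genes, Snap25 (log2 fold change 0.65) and Syt1 (0.59) differed most between the groups, beside a median of 0.11. The part of endocrine cells in the score, and in differences taken from it, was not tested. Subtracting the score narrowed the spread of Ngfr over the 12 mice from an SD of 0.36 to 0.17 on the log2 scale, of Gfra3 from 0.33 to 0.15, of Ret from 0.28 to 0.14, of Gfra1 from 0.49 to 0.36, of Gfra2 from 0.36 to 0.28 and of Bdnf from 0.17 to 0.11. It did not narrow that of Ntrk3 (0.59 and 0.60) or Ntrk2 (0.18 and 0.22).

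Relative to the score, 0 of 8 members passed an adjusted p of 0.05 by limma, beside 0.0211% of genes, and 1 of 8, Gfra2, had an unadjusted p under 0.05, beside 9.32%. Gfra2 lay at -1.98 ± 0.277 in responders and -1.62 ± 0.146 in non-responders, in log2 units from the score (SD, n = 6 per group). The difference was -0.36 (SE 0.146, 95% interval -0.67 to -0.04, limma, unadjusted p = 0.0320, adjusted p = 0.516), beside a median of -0.18 over all genes, and it was -0.26 without responder 1 and -0.22 without responder 1 and non-responder 4. Ntrk3 differed by 0.54 (SE 0.299, limma, unadjusted p = 0.0968, adjusted p = 0.559), by 0.74 without responder 4 (limma, unadjusted p = 0.0191), by 0.30 without responder 1 and by 0.28 without responder 1 and non-responder 4. It had an unadjusted p under 0.05 in 4 of 24 settings. Ret lay at 1.25 ± 0.164 and 1.41 ± 0.0502 (difference -0.16, SE 0.108, limma adjusted p = 0.575). Ngfr differed by less than 0.01 in size, with an SE of 0.126 and a 95% interval of -0.28 to 0.27. Only Ntrk3 had a positive difference, so that the members split 1 to 7, and 15.0% of all genes were positive on this scale. When genes of large neurons were added to the score, 7 members were positive, with Ngfr at 0.20 and Ret at 0.04. Gfra2 was then at -0.15 (limma, unadjusted p = 0.389). The direction for most members thus depends on the genes in the score. Among the added genes Pvalb (log2 fold change -1.54), also found in muscle, and Spp1 (-0.95) were the most negative. Nefh, Nefm and Nefl were positive (0.11 to 0.13). The part of Pvalb and Spp1 in the change of direction was not tested.

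The log2 ratios of 5 receptor pairs set 1 receptor against another within each mouse. Ntrk2 and Ngfr are also made by glial cells, and Ret is shared by the coreceptors. The ratios therefore do not compare neuron classes alone, and the part of glial cells in them was not tested. The ratio of Ntrk2 to Ntrk3, TrkB over TrkC, was 2.23 ± 0.666 in responders and 2.89 ± 0.252 in non-responders (difference -0.66, exact permutation p = 0.0519, adjusted over the 5 pairs 0.173). That of Gfra2 to Gfra3 was -0.11 ± 0.154 and 0.14 ± 0.234 (difference -0.25, exact permutation p = 0.0693, adjusted 0.173). That of Ngfr to Ntrk3 was 3.87 ± 0.846 and 4.41 ± 0.333 (difference -0.54, exact permutation p = 0.175, adjusted 0.219). Gfra1 to Gfra2 gave 1.12 ± 0.326 and 0.89 ± 0.148 (difference 0.23, exact permutation p = 0.147, adjusted 0.219), and Gfra3 to Ret -3.12 ± 0.153 and -3.17 ± 0.167 (difference 0.05, exact permutation p = 0.58). These tests were 2-sided over 924 splits, whose smallest p is 0.00216, and 0 of 5 pairs passed. Both ratios to Ntrk3 depended on single mice. Without responder 1, which had the highest Ntrk3, those of Ntrk2 and of Ngfr differed by -0.48 (exact permutation, adjusted p = 0.231) and -0.25 (adjusted p = 0.43). Without responder 4, which had the lowest Ntrk3 of the responders, they differed by -0.85 (exact permutation, adjusted p = 0.0325) and -0.77 (adjusted p = 0.0379). The ratio of Gfra1 to Gfra2 also moved, to a difference of 0.34 without responder 1 (exact permutation p = 0.0108, adjusted 0.0541).

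Over the 12 mice the members fell into those that followed neuronal RNA and those that did so less. With the pan-neuronal score, Ngfr had a Pearson r of 0.92 (rho 0.81, permutation p = 3e-05, adjusted over the 8 genes 0.000213), Gfra3 0.90 (rho 0.78, adjusted 0.000213) and Bdnf 0.90 (rho 0.94, adjusted 0.000213). Ret had 0.86 (rho 0.87, adjusted 0.00034), Gfra1 0.72 (rho 0.77, adjusted 0.01) and Gfra2 0.63 (rho 0.62, adjusted 0.0427). Without non-responder 4 and responder 5, the mice farthest from the median of the score, these 6 values were 0.86, 0.87, 0.86, 0.88, 0.76 and 0.69. Ntrk2 had 0.47 (rho 0.36, permutation p adjusted 0.138, 0.15 without the 2 mice) and Ntrk3 0.16 (rho 0.13, adjusted 0.611, -0.59 without them). Within responders and within non-responders Ngfr had r = 0.88 and 0.97, Ret 0.91 and 0.97, and Ntrk3 -0.34 and 0.41 (n = 6 each). Description numbers hold 1 to 3 mice each, too few for a value within them. Each value with the score given here keeps responder 1, non-responder 4 or both.

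**Figure D3:**
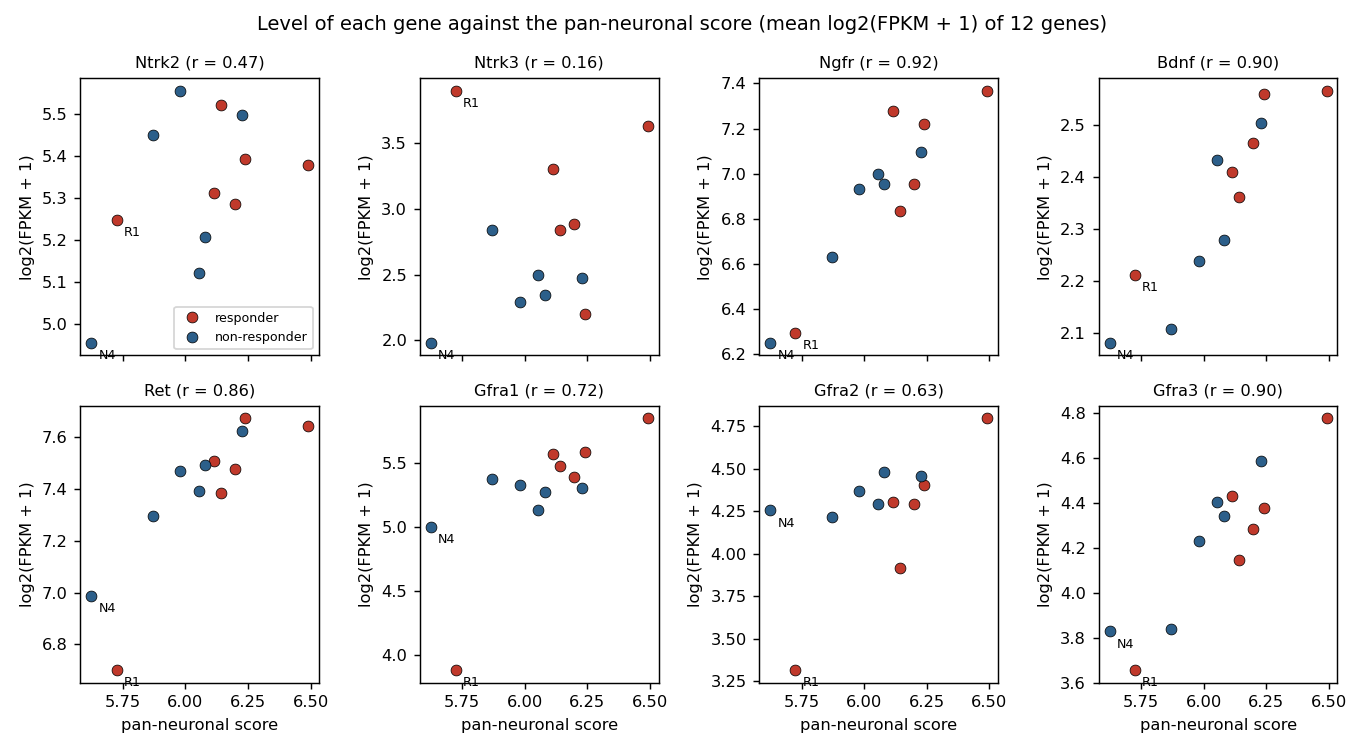
Level of each gene, log2(FPKM + 1), against the pan-neuronal score of the same mouse (x axis, mean log2(FPKM + 1) of 12 genes), with responders in red, non-responders in blue, and responder 1 and non-responder 4 marked. Ngfr, Gfra3 and Bdnf climb with the score (r of 0.90 to 0.92), while Ntrk3 is high in responder 1 at a low score.

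Ntrk2, whose RNA satellite glia also carry, had r = 0.57 with the satellite glia score (rho 0.73, permutation p = 0.0564, adjusted over the 8 genes 0.177). It was 0.66 without responders 1 and 2, the mice farthest from the median of that score, and 0.84 within responders and 0.82 within non-responders. Other members had values of like size with this score: Ntrk3 -0.54, Gfra1 0.52 and Ret 0.51 (adjusted permutation p = 0.177 for each). Within non-responders Gfra1 had 0.73 and Ntrk3 0.71, against 0.67 and -0.78 within responders. With this score, 0 of 8 members had an adjusted p under 0.05.

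Among the members themselves, 13 of 28 pairs had an adjusted permutation p under 0.05, all of them pairs without Ntrk3 or Ntrk2. Ngfr, Ret, Gfra1, Gfra2 and Gfra3 gave 10 pairs with r from 0.70 to 0.93. Ngfr and Gfra3 had the highest, 0.93 (rho 0.96, permutation p = 4e-05, adjusted 0.000467, 0.90 without the 2 mice farthest from the median of Ngfr). Gfra1 and Gfra2 had 0.84 (rho 0.38, permutation p = 0.00899, adjusted 0.0210), which became -0.12 without responders 1 and 5, so that this relation rests on those mice. Without the same mice Gfra1 and Gfra3 went from 0.72 to 0.34 and Gfra2 and Gfra3 from 0.78 to 0.48, and without non-responder 4 and responder 1 Ret and Gfra1 went from 0.89 to 0.52. The 7 pairs with Ntrk3 ran from -0.38 to 0.15, and the other pairs with Ntrk2 from 0.09 to 0.47. The pairs with Ntrk3 also moved without responders 1 and 5. With Gfra1 the value went from -0.27 to 0.58 and with Ngfr from 0.04 to 0.39, while with Gfra2 it was -0.38 and -0.37. All these points share the scale and depth of their library.

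**Figure D4:**
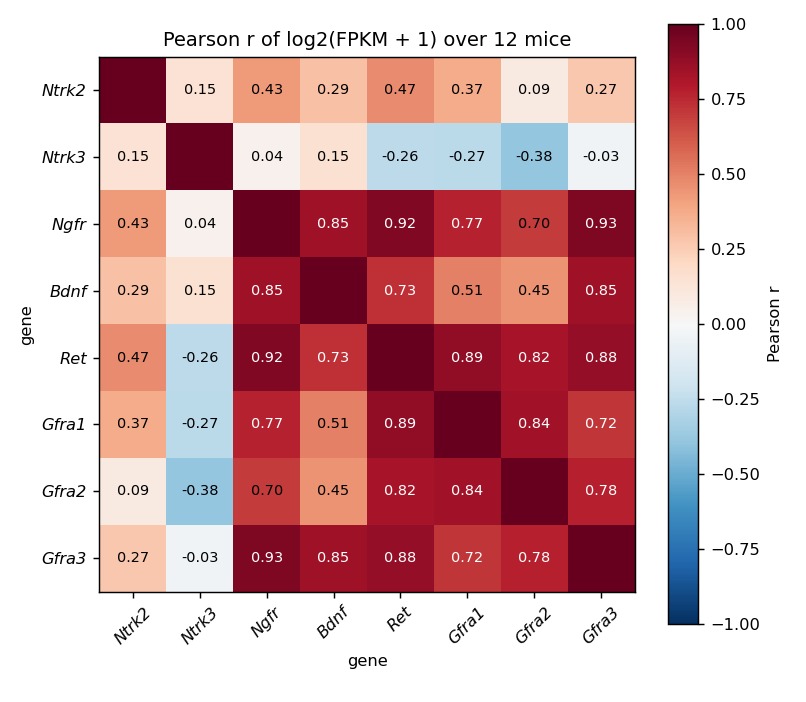
Pearson r of log2(FPKM + 1) over the 12 mice for every pair of the 8 genes, from -1 (blue) to 1 (red), with the value in each cell. Ngfr, Ret and the 3 coreceptors form a block of 0.70 to 0.93. The row of Ntrk3 stays between -0.38 and 0.15, and that of Ntrk2 between 0.09 and 0.47.

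The protein-coding genes most like each member over the 12 mice were searched among 7621 tested genes with a mean of at least 5 FPKM. For Ngfr they were Nol3 (r = 0.99), Nefh, the heavy neurofilament of large neurons (0.97), and Slc35f1 (0.97). For Ret they were Actr1a, a subunit of dynactin (0.99), Trarg1 (0.99) and Shc2, a signalling adaptor of neurons (0.99). For Gfra3 they were Cyb5d2 (0.97), Trpv1, the capsaicin receptor of peptidergic nociceptors (0.96, and 0.95 without the 2 mice farthest from the median of Gfra3), and Reep2 (0.96). Gfra1 was nearest to Scrn1 (0.97, and 0.68 without 2 mice), Dock5 and Plxnc1 (both 0.96), and Gfra2 to Susd6 (0.96), Klf7 (0.94) and Foxd3 (0.94). Bdnf was nearest to Rab3gap2 (0.93), Rrn3 (0.92) and Pqlc1 (0.91), Ntrk2 to Tnks (0.91), Syt12 (0.89) and Sdha, a subunit of mitochondrial complex II (0.87), and Ntrk3 to Mmgt2 (0.91), Pard3 (0.86) and Irf2bpl (0.85). These values were picked as the highest of many and are a description.

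The other genes of the pathway were taken from 5 lists of 61 genes. Of these 48 were tested. By limma 0 passed an adjusted p of 0.05 between the groups, and 3 (Bex3, Irs1 and Dusp6) had an unadjusted p under 0.05, beside 7.40% of all genes. Of 8 ligands, 2 were high enough to test. Nrtn, the ligand of Gfra2, lay at 2.41 ± 1.25 FPKM in responders and 2.39 ± 0.710 in non-responders (SD, n = 6 per group). The RNA of Gdnf, Ntf3 and Artn, the ligands of Gfra1, Ntrk3 and Gfra3, stayed at or below 0.343, 0.436 and 0.276 FPKM in every mouse.

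Of 13 other receptors and coreceptors, 11 were tested, 5 with a positive and 6 with a negative log2 fold change, and 0 had an unadjusted p under 0.05. Sorcs1, a sorting receptor that binds Trk receptors, lay at 12.4 ± 2.34 and 14.7 ± 1.66 FPKM, Gfra4, the persephin coreceptor, at 7.53 ± 2.87 and 10.2 ± 3.53, and Rtn4r, a partner of p75, at 4.65 ± 0.911 and 5.30 ± 1.05 (SD, n = 6 per group). Among 21 adaptors tested, 14 were positive and 7 negative, where 50.7% of all genes were positive. An unadjusted p under 0.05 was reached by 1 in each direction. These were Bex3, which binds p75, at 16.5 ± 3.12 and 13.1 ± 1.21 FPKM (log2 fold change 0.29, limma, unadjusted p = 0.0270, adjusted p = 0.633), and Irs1 at 2.12 ± 0.243 and 2.57 ± 0.301 (-0.19, limma, unadjusted p = 0.0393, adjusted p = 0.645). Grb2, the adaptor that links receptors to Ras, lay at 25.4 ± 13.2 and 39.2 ± 11.6 FPKM (limma, unadjusted p = 0.0726).

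Among 10 feedback regulators, 5 were positive and 5 negative. Dusp6, a phosphatase of ERK, lay at 5.95 ± 0.279 FPKM in responders and 7.50 ± 1.29 in non-responders (log2 fold change -0.28, limma, unadjusted p = 0.0176, adjusted p = 0.602), Lrig3 at 1.25 ± 0.176 and 1.54 ± 0.199, and Ptprs, a receptor phosphatase, at 60.4 ± 6.17 and 55.4 ± 11.1 (SD, n = 6 per group). All 4 tested genes of growth factor processing were negative (median -0.12), with 0 at an unadjusted p under 0.05. They include the proprotein convertases Furin (-0.11) and Pcsk7 (-0.13) and the plasminogen activator Plat (-0.17). The median log2 fold change over all genes was 0.003.

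Markers of the neuron classes gave no call either, by limma with adjustment over all genes. In the large, nonpeptidergic and peptidergic lists, 1 peptidergic gene had an unadjusted p under 0.05. The 8 genes of large neurons, the class of Ntrk3 and Ntrk2, summed to 2185 to 3958 FPKM in responders and 2941 to 3825 in non-responders, with 3 positive and 5 negative log2 fold changes. Nefh lay at 600.1 ± 124 and 542 ± 80.5 FPKM, Nefm at 1276 ± 257 and 1169 ± 169, and Nefl at 1526 ± 319 and 1397 ± 225 (SD, n = 6 per group). These neurofilament genes were the 3 positive ones and made up most of the sum. Spp1, a negative one, lay at 32.2 ± 12.3 and 79.1 ± 58.2 FPKM (log2 fold change -0.95, limma, unadjusted p = 0.0937). Pvalb, listed here with large neurons and also found in muscle, lay at 53.0 ± 48.3 and 163 ± 174 FPKM, while 5 genes of skeletal muscle summed to 8.67 to 355 in responders and 25.9 to 1432 in non-responders. Its part in Pvalb was not tested. The nonpeptidergic genes, of the class that carries Ret and Gfra2, were 3 positive and 1 negative, with Mrgprd at 28.7 ± 9.76 and 27.3 ± 3.02 FPKM. The peptidergic genes, of the class that carries Gfra3, were 2 positive and 3 negative, with Calca at 36.4 ± 4.94 and 39.8 ± 11.6 FPKM. Trpa1, an irritant-gated channel, was the peptidergic gene under 0.05, at 12.3 ± 2.49 and 8.18 ± 1.87 FPKM (log2 fold change 0.55, limma, unadjusted p = 0.0056, adjusted p = 0.482). The 2 tested genes of C low-threshold mechanoreceptors were negative, with 0 at an unadjusted p under 0.05. All 4 tested itch genes were positive, with Il31ra (0.42, limma, unadjusted p = 0.00244) and Htr1f (0.26, limma, unadjusted p = 0.0412) under 0.05. Of the cold class genes, 2 were positive and Trpm8 was negative (-0.88, limma, unadjusted p = 0.00408). Over all genes 7.40% had an unadjusted p under 0.05.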

How the data were processed

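RNA from the trigeminal ganglia of 12 mice, 1 library each, was sequenced on an Illumina HiSeq with 150 bp paired-end reads after poly A selection, per the labels. The values of the table the authors deposited, by Ensembl gene and mouse, are taken here as FPKM. The unit is not named in the file header and was inferred from the values, whose totals differ between mice and whose steps shrink with gene length. STAR 2.6.0a and StringTie 1.3.5 with GRCm38 and mm10 are named per the submitters' processing notes, and the sources used here do not give the annotation release or the use of strand. Raw counts were not used here, depth was inferred from the smallest steps, and no interval that needs counts was made. StringTie splits reads between overlapping transcripts by estimation, so that values of low genes are approximate.

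Identifiers were matched to GENCODE M21 (51024 of 51341). Tests used limma 3.58.1 (R 4.3.3) on log2(FPKM + 1), over the 14203 genes that reached 1 FPKM in 3 or more mice, with sex as a covariate, 2-sided, and Benjamini-Hochberg adjustment over all genes tested at 0.05. The added 1 FPKM makes fold changes of genes at low levels smaller than they are. Contrasts within sexes and their difference came from 4 cell means over all 12 mice. A further fit subtracted the mean of the 12 pan-neuronal genes from every gene. Ratios of pairs were compared with exact permutation tests over all 924 splits, written in Python 3.11.15 with numpy 2.4.6. Ranks for rho came from scipy 1.17.1. Correlations over mice used 100000 resamples, with adjustment within each family. The text names the 8 members, the 3 genes most like each, and of each pathway list the genes past the threshold and otherwise up to 3 tested genes with the smallest p. Marker genes were named after their values were seen, as were Gdnf, Ntf3 and Artn, and Snap25 and Syt1. The members, lists and tests were chosen with earlier results of these data known. Transcripts were compared with blastn 2.17.0 (at least 90% identity over at least 200 bases). The procedure was tested on simulated data. The alternatives were another pseudocount, other filters, scalings and weights, other covariates and scores, and fits without single mice. Some other genes of the pathway are not reported here.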

Additional observations from a re-analysis of the deposited data

Results flagged for a closer look

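In responders the lowest mouse stood far from the next one for 2 of the 8 genes, and in both it was responder 1. For Ret the gap from 103 FPKM to the next lowest responder was 0.704 of the range of the group on the log2 scale, and for Gfra1 the gap from 13.7 FPKM was 0.769, both past the 95% limit of Dixon's test. Chance alone puts about 1 in 20 groups past that limit. Responder 1 also had the lowest implied depth, 17200000 fragments, and the highest sum of pituitary genes, and their part in these values was not tested.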

How the results depend on the processing

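In the comparison over all mice, 0 of 8 members were called by limma under any alternative, and Ntrk3 kept a positive log2 fold change of 0.47 to 0.91 in all 25 settings, with an unadjusted p under 0.05 in 23 of them. The exceptions were array weights and the fit without responder 1 and non-responder 4. The number of genes called over the whole table, 3 in the main comparison, was 1 with at least 1 FPKM required in all mice, 1 with a replicate block and 1 when mice were averaged by description number. That filter gave 0 in males, 0 in females, 1 for the difference between the sexes, 2 for females against males and 1 relative to the pan-neuronal score. The filter tests fewer genes; the cause of the other changes was not tested. A pseudocount of 0.1 gave 4 genes in males, no filter gave 5 in females, and quantile normalization gave 5 relative to the score. Array weights gave 5787 genes in males with 2 members called (Ntrk3 and Bdnf), 11 in females and 508 for the difference between the sexes, fits in which the weights did not converge, and 147 relative to the score. Without responder 1 and non-responder 4 the counts were 1 in males and 3 in females.

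Leaving out 1 mouse at a time, the genes called ranged from 2 to 6 over all mice, 1 to 5 in males, 1 to 5 in females, 0 to 3 for the difference between the sexes, 6 to 9 for females against males and 2 to 23 relative to the score (23 without non-responder 2), and members called stayed at 0. Pairs called ranged from 0 to 2, with Ntrk2 to Ntrk3 at -0.85 to -0.48, Ngfr to Ntrk3 at -0.77 to -0.25, and Gfra3 to Ret at -0.0036 to 0.091. Log2 fold changes that crossed 0 over all mice were those of Gfra1 (-0.050 to 0.32), Gfra3 (-0.024 to 0.20) and Ret (-0.045 to 0.15). In males they were Ntrk2 (-0.071 to 0.20), Ngfr (-0.19 to 0.34), Bdnf (-0.030 to 0.18), Ret (-0.33 to 0.12), Gfra1 (-0.56 to 0.29) and Gfra3 (-0.34 to 0.11). In females they were Ntrk2 (-0.070 to 0.15), Ntrk3 (-0.027 to 0.69) and Gfra2 (-0.14 to 0.31). For the difference between the sexes they were Ntrk2 (-0.14 to 0.13) and Ngfr (-0.054 to 0.48). Females against males crossed 0 for Ntrk3 (-0.22 to 0.097), Gfra2 (-0.024 to 0.22) and Gfra3 (-0.020 to 0.20). Relative to the score, Ngfr (-0.078 to 0.053), Bdnf (-0.061 to 0.012) and Gfra1 (-0.22 to 0.066) did so.

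Other reversals were Gfra1 in males (0.11), Gfra3 in females against males (-0.0055) and Gfra1 relative to the score (0.056) with array weights, and Ntrk2 for the difference between the sexes (0.042) with FPKM rescaled to 1 total. With the score as a covariate Ntrk2 was 0.012 and Bdnf 0.045. With large neuron genes added to the score Ntrk2 was 0.081, Ngfr 0.20, Ret 0.043, Gfra1 0.077, Gfra3 0.097 and Bdnf 0.18. Without responder 1 and non-responder 4, Ntrk2 was -0.054 and Gfra1 0.19 in males, and Ntrk2 0.11 for the difference between the sexes. Females against males then gave Ngfr -0.071, Ret -0.048, Gfra2 -0.050, Gfra3 -0.12 and Bdnf -0.037, and relative to the score Ngfr was 0.011 and Gfra1 0.095. Averaging by description number relative to the score, added after seeing the data, gave 1 gene called and Ngfr 0.050. The cause of these reversals was not tested.

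No pairing of mice by replicate number was detected. Deviations of same-numbered mice correlated at -0.27 to 0.13, 1 of 6 over 0.1, and 0 of 6 responders correlated best with their own number. These values cannot tell whether same-numbered mice were handled together. With the replicate block Ntrk3 was at 0.72 (limma adjusted p = 0.620) and 0 of 8 members and 0 of 5 pairs were called, with an exact sign-flip p adjusted of 0.208 for Ntrk2 to Ntrk3 (-0.66), Gfra2 to Gfra3 (-0.25) and Gfra1 to Gfra2 (0.23). Depth is known only by inference, and how far it limits each member was not tested.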
